A study of Canis lupus familiaris with 13 samples.

Results

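The 10 genes described here are markers of macrophages and the genes of complement C1q, taken by symbol from a table of 43427 genes: CD68, CSF1R, and AIF1 (pan-macrophage genes), CD163, MSR1, MRC1, and MARCO (scavenger receptors), and C1QA, C1QB, and C1QC (C1q chains). All 10 were in the table and all 10 were among the 20118 genes with enough counts to be tested. Their RNA was followed by RNA-seq in 13 biopsies from 3 companion dogs with 4 tumors, treated with IMAX, a nanoparticulate complex of polyethyleneimine conjugated to lithocholic acid that carries paclitaxel and a cyclic dinucleotide (a STING agonist) and is injected into the tumor. Dog RV had a soft tissue sarcoma, dog CL a cranial and a caudal mammary tumor, and dog BM a mammary tumor. Each tumor was biopsied before treatment (4 libraries), early, at 2 days in RV and 1 week in CL and BM after the second dose (4 libraries), and late (5 libraries). The late biopsies were taken 2 weeks after the third dose in RV, from the injection site and an adjacent site of 1 mass, and 1 month (CL) or 3 weeks (BM) after the second dose. No untreated tumor was sequenced, each tumor had 1 library at each time point apart from the late RV sites, and both CL tumors were in the same dog, so effects of treatment and of time cannot be told apart.

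Macrophages engulf particles and dying cells, and in tumors they are among the most common infiltrating leukocytes. CSF1R, the receptor for colony-stimulating factor, sustains them, CD68 is a glycoprotein of their endosomes and lysosomes, and AIF1 encodes the actin-binding protein Iba-1, a standard stain for them. Scavenger receptors take up modified lipoproteins, hemoglobin complexes, glycoproteins, and microbes, while C1q, which macrophages themselves secrete, is assembled from the products of C1QA, C1QB, and C1QC and opens the classical complement pathway. In bulk tissue, more macrophages and more RNA of a gene in each macrophage cannot be told apart.

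In the RefSeq annotation of UU_Cfam_GSD_1.0, the assembly also called CanFam4.0, the C1q genes were neighbors on chromosome 2, with C1QB at 76042588-76047706, C1QC at 76052212-76056780, and C1QA at 76060247-76063252. MRC1 was on the same chromosome at 18038475-18133728. CSF1R was at 59895615-59925571 on chromosome 4 and CD68 at 32709456-32711701 on chromosome 5. AIF1 was at 1243086-1244917 on chromosome 12, MSR1 at 40253347-40331889 on chromosome 16, MARCO at 32420649-32465527 on chromosome 19, and CD163 at 8402538-8433169 on chromosome 27. These are whole gene spans, and all 10 genes were annotated as protein coding. A long noncoding RNA gene overlapped the spans of C1QA and C1QC, another overlapped CD163, and a pseudogene overlapped MSR1, so reads in those stretches may have been split.

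The libraries held 11622444 to 29931125 counts on genes. Levels are given in CPM, the counts relative to the TMM-scaled total of the library, and changes as log2 differences. They are compared between libraries and not between genes, since transcript lengths were not used. In 4 libraries, RV at 2 days, CL caudal before treatment and at 1 month, and CL cranial at 1 month, genes in gene-dense regions lay below genes in gene-sparse regions, by 0.32 to 1.42 on the log2 scale. For this, each gene was first set relative to its own mean over the 13 libraries, and medians were compared. Without these libraries the early comparison rests on CL cranial and BM alone, and the value without them follows the fitted early difference of each gene, together with the range when 1 tumor or library was left out.

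Early after treatment every one of the 10 genes had a fitted level above that before treatment, with log2 differences of 1.20 (C1QA) to 4.95 (MARCO), and late the differences were between -0.61 and 0.84. None of the 10 passed an adjusted p of 0.05 in edgeR's quasi-likelihood test with the tumor as a block. In the early comparison 0.00497% of all tested genes passed, which was 1 gene, TGM2, a transglutaminase. At an unadjusted p under 0.05, 9 of the 10 genes (all but C1QA) were higher early, beside 7.7% of all genes, and DESeq2 put 5 of them (CD68, CSF1R, CD163, MSR1, and MARCO) past an adjusted p of 0.05, with 4.75% of all genes. The median fitted log2 difference over the 10 genes was 1.77 early, against 0.25 over all genes tested, and 0.41 late, against -0.05. Without the 4 libraries low in gene-dense regions, the early median of the 10 genes was 2.27 and again none passed.

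CD68, CSF1R, CD163, and MARCO were higher early than before treatment in all 4 tumors, as were 10.8% of all genes. For the same 4 genes every early library lay above every pretreatment library, which held for 2.71% of all genes. The remaining 6 genes were lower early in at least 1 tumor, in RV for MRC1 and all C1q chains, and in CL caudal for AIF1, MSR1, and C1QA.

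**Figure D1:**
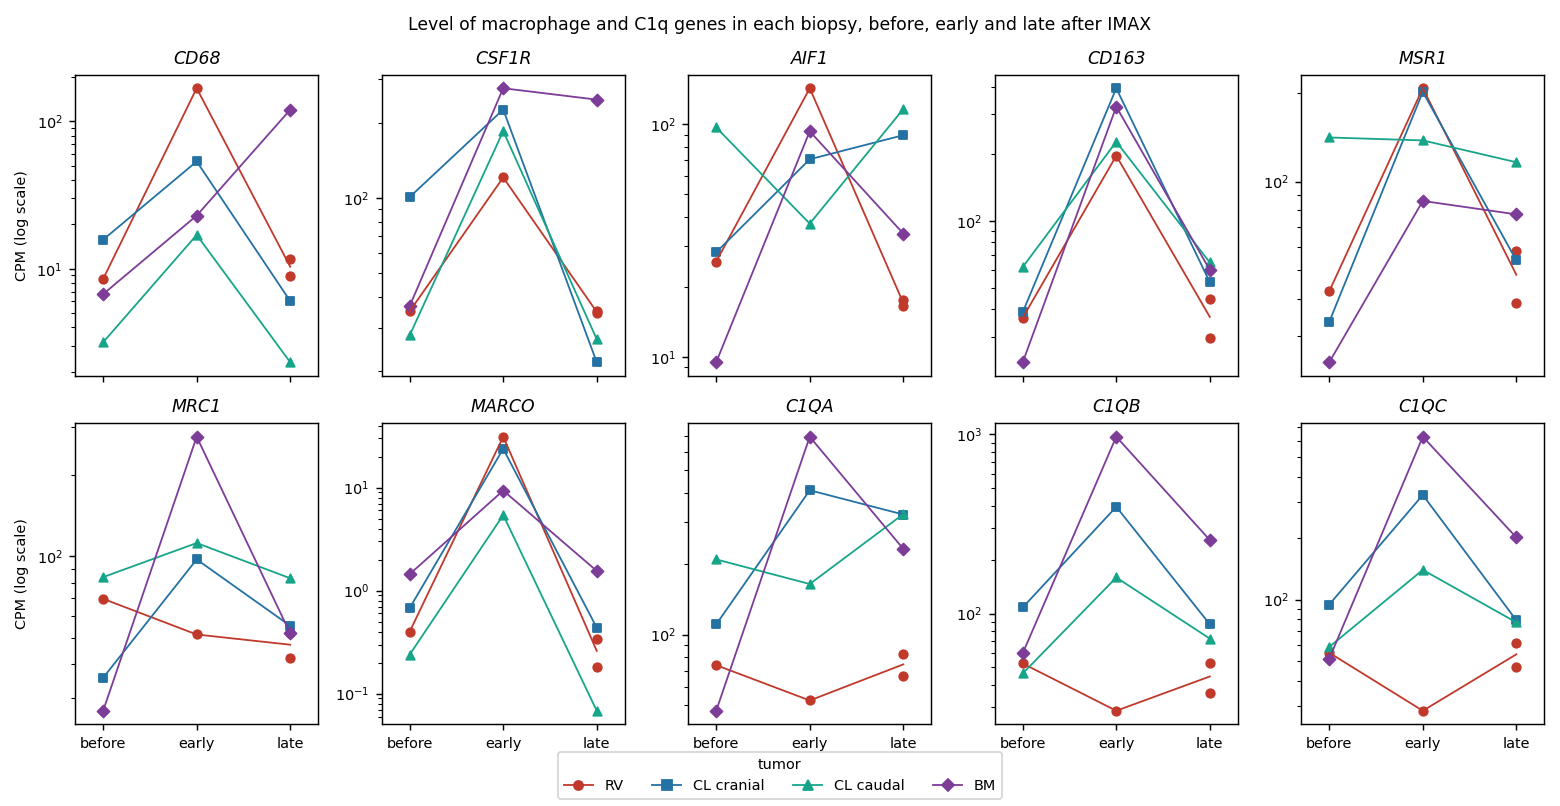
Level of each gene in each biopsy in CPM on a log axis, by time group, with 1 point per library and 1 line per tumor, drawn through the mean of the late RV sites. CD163 and MARCO peak early in all 4 tumors, while the C1q chains peak early in BM and CL cranial but are lowest early in RV.

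CD163, the receptor for hemoglobin-haptoglobin complexes, was higher early in every tumor, with the smallest standard error of the 10 genes. Before treatment it was at 36.7 CPM in RV, 38.8 and 62.0 in the cranial and caudal CL tumors, and 23.1 in BM. Early it was at 196 CPM in RV, 394 and 226 in the cranial and caudal CL tumors, and 325 in BM, 3.65-fold (CL caudal) to 14.1-fold (BM) above the pretreatment biopsy of the same tumor. Late it was at 29.6 CPM at the RV injection site, 44.3 at the adjacent site, 53.0 and 64.9 in the cranial and caudal CL tumors, and 60.1 in BM. No early library overlapped the libraries before treatment or late. The mean was 40.2 ± 16.1 CPM (SD, n = 4) before, 285 ± 90.9 (SD, n = 4) early, and 50.4 ± 14.0 (SD, n = 5) late. The fitted early difference was 2.84 (SE 0.39, adjusted p = 0.0930 in edgeR), the smallest adjusted p among the 10 genes. Without the CL caudal library at 1 week the difference was 3.03 and passed (adjusted p = 0.0453), as did 0.0566% of all genes. Leaving out a tumor or library gave 2.45 (without BM) to 3.14 (without CL caudal), and the value without the 4 libraries was 3.35.

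MARCO, a scavenger receptor that binds bacteria and inhaled particles, had low counts outside the early biopsies, from 1 to 52, with the highest in BM. Its counts before treatment were 6 in RV, 14 and 4 in the cranial and caudal CL tumors, and 52 in BM. Early they were 556, 592, 133, and 264 in the same order. Late they were 5 and 3 at the RV sites, 5 and 1 in the cranial and caudal CL tumors, and 37 in BM. In CPM the means were 0.690 ± 0.534 (SD, n = 4) before, 17.4 ± 12.1 (SD, n = 4) early, and 0.516 ± 0.597 (SD, n = 5) late, and no early library overlapped the others. The fitted early difference was 4.95 (SE 0.80, adjusted p = 0.116). It was 4.28 (without RV at 2 days) to 5.43 (without BM at 1 week) with a tumor or library left out, and 3.74 without the 4 libraries. Within tumors the log2 difference was 5.97 in RV, 4.95 and 4.03 in the cranial and caudal CL tumors, and 2.62 in BM, where the pretreatment count was the highest.

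MSR1, the class A scavenger receptor of modified lipoproteins, was at 42.5 CPM in RV, 33.5 and 141 in the cranial and caudal CL tumors, and 24.4 in BM before treatment. Early it was at 207, 201, 138, and 86.0 CPM in the same order. The early libraries lay above those of their own tumor by 4.87-fold in RV, 6.01-fold in CL cranial, and 3.52-fold in BM, whereas CL caudal, already the highest before treatment, differed by 0.978-fold. Late levels were 38.7 and 58.0 CPM at the RV sites, 54.1 and 116 in the cranial and caudal CL tumors, and 77.4 in BM. The fitted early difference was 1.73 (SE 0.50, adjusted p = 0.249). It ranged from 1.39 (without RV at 2 days) to 2.25 (without CL caudal), and was 1.93 without the 4 libraries.

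MRC1, the mannose receptor (CD206), was at 69.7 CPM in RV, 35.6 and 83.8 in the cranial and caudal CL tumors, and 26.9 in BM before treatment. Early it was at 51.5, 97.4, 112, and 276 CPM in the same order, so that BM was 10.3-fold higher and RV lower than before. Late it was at 42.3 and 52.1 CPM at the RV sites, 55.4 and 83.0 in the cranial and caudal CL tumors, and 52.0 in BM, a narrower range than at either other time. The fitted early difference was 1.22 (SE 0.54, adjusted p = 0.450). It rested largely on BM, at 0.35 without that tumor, 0.54 without its 1-week library, and 0.69 without its pretreatment library. It was 1.80 without RV and 2.19 without the 4 libraries.

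Of the pan-macrophage genes, CSF1R was at 34.9 CPM in RV, 101 and 27.9 in the cranial and caudal CL tumors, and 36.6 in BM before treatment. Early it was at 121, 227, 186, and 276 CPM in the same order, without overlap between the groups. Late it was at 34.5 and 35.0 CPM at the RV sites, 21.8 and 27.0 in the cranial and caudal CL tumors, and 249 in BM. The BM biopsy at 3 weeks thus stood apart from the other late libraries and close to its own early level. The fitted early difference was 1.99 (SE 0.63, adjusted p = 0.291). Leaving out BM before treatment gave 1.55 and CL cranial before treatment 2.63, the lowest and highest such values, and without the 4 libraries it was 1.499.

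CD68 was at 8.53 CPM in RV, 15.7 and 3.17 in the cranial and caudal CL tumors, and 6.72 in BM before treatment. Early it was at 168 CPM in RV, 19.7-fold above the pretreatment biopsy, and at 53.4 and 16.95 in the cranial and caudal CL tumors, and 22.9 in BM. Late it was at 8.95 and 11.7 CPM at the RV sites, 6.03 and 2.32 in the cranial and caudal CL tumors, and 119.9 in BM, the only tumor in which it was higher late than early. The fitted early difference was 2.82 (SE 0.98, adjusted p = 0.345). It was 1.92 without RV at 2 days, 3.48 without CL cranial before treatment, and 0.97 without the 4 libraries (adjusted p = 0.945). Markers of osteoclasts, which express CD68 and CSF1R too, summed to 3446 CPM in BM at 3 weeks against 84.1 before treatment, with ACP5 at 778 CPM, OCSTAMP at 45.2, and CTSK, which fibroblasts also express, at 2597. Of the other markers of the list, CALCR was at 0.722 CPM before treatment and 0.882 at 3 weeks in BM. DCSTAMP was at 0.889 and 13.8, and OSCAR at 0.083 and 11.6. In RV the sum was 2252 CPM before treatment and 2424 and 3272 at the late sites, mostly CTSK (2231, 2417, and 3262). In BM at 3 weeks CD163 was at 60.1 CPM, 2.60-fold above its level before treatment. By the same measure C1QA was 4.88-fold, C1QB 4.29-fold, C1QC 3.93-fold, AIF1 3.57-fold, MSR1 3.17-fold, MRC1 1.93-fold, and MARCO 1.08-fold higher. The part of osteoclasts in the late BM values of CD68 and CSF1R was not tested.

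AIF1 was at 25.7 CPM in RV, 28.1 and 96.8 in the cranial and caudal CL tumors, and 9.47 in BM before treatment, and early at 143, 70.7, 37.4, and 93.2 CPM in the same order. It was higher early in 3 tumors, by 2.51-fold to 9.84-fold, and lower in CL caudal, where CD68, CSF1R, and CD163 were higher. Late it was at 17.6 and 16.5 CPM at the RV sites, 89.7 and 116 in the cranial and caudal CL tumors, and 33.9 in BM. The groups overlapped, and the fitted early difference was 1.78 (SE 0.76, adjusted p = 0.447). It was 0.89 without RV at 2 days, 1.16 without BM, 2.44 without CL caudal, and 1.87 without the 4 libraries.

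**Figure D2:**
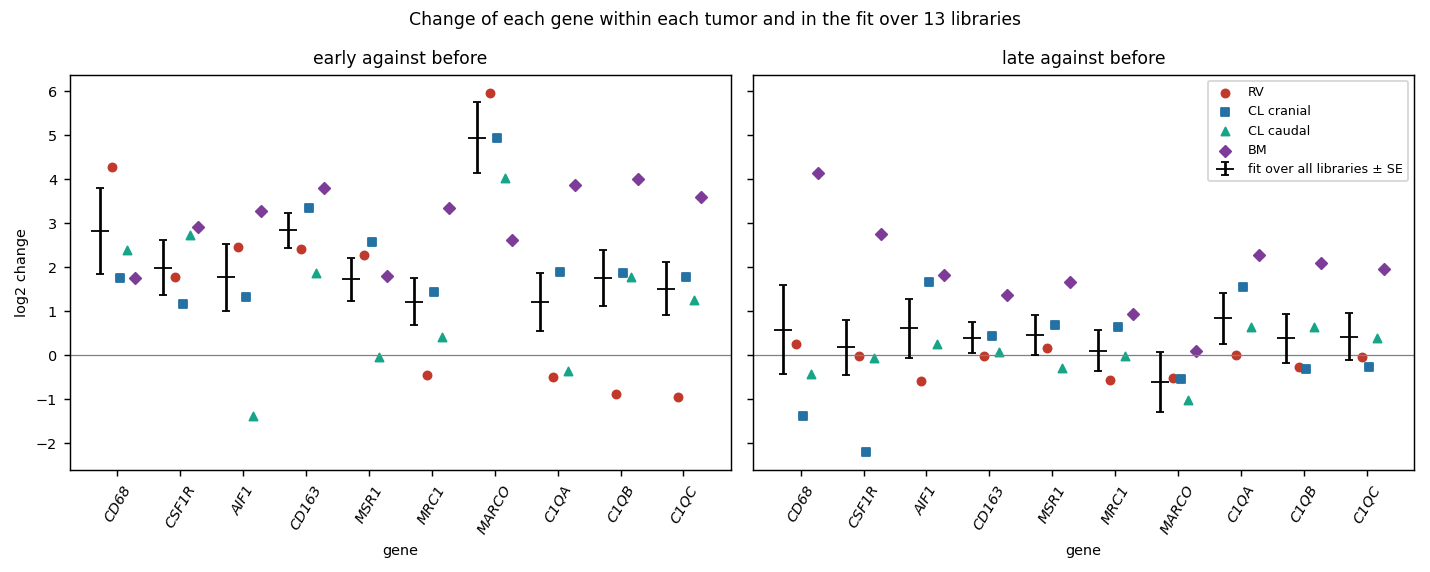
Log2 difference of each gene from before treatment, early (left) and late (right), in each tumor (colored points) and in the edgeR fit over 13 libraries (black bars, ± SE). MARCO and CD163 lie above 0 in all 4 tumors early, the C1q chains lie below 0 in RV early, and late BM lies highest for each gene.

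The C1q chains split by tumor. In BM at 1 week C1QA was at 695 CPM, C1QB at 971, and C1QC at 628, against 47.5, 59.98, and 51.4 before treatment, which was 14.7-fold, 16.2-fold, and 12.2-fold higher. In CL cranial at 1 week they were at 411, 394, and 326 CPM, against 111, 108, and 94.7 before, or 3.44-fold to 3.72-fold higher. In CL caudal C1QB went from 46.2 to 159 CPM and C1QC from 58.7 to 139.9, while C1QA was at 209 before and 164 early.

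In RV at 2 days, in contrast, all C1q chains were lower than before treatment. C1QA was at 52.5 CPM (95% exact Poisson interval 49.2 to 56.0) against 74.2 (69.9 to 78.7). C1QB was at 28.6 CPM (26.2 to 31.2) against 52.6 (49.0 to 56.4), and C1QC at 28.6 (26.1 to 31.2) against 55.0 (51.3 to 58.9). These intervals cover counting error only, and with 1 library at each time the difference has no replicate check. In that same library CD68, MARCO, AIF1, CD163, MSR1, and CSF1R were 3.46-fold to 78.1-fold higher than before. Genes of short span minus genes of long span, each gene relative to its mean over all libraries, stood at -1.42 on the log2 scale there and 0.619 in RV before treatment. The C1q genes span 3006 to 5119 bases, and MSR1, MARCO, CD163, and CSF1R 29957 to 78543. CD68 and AIF1, also higher, span 2246 and 1832 bases. MRC1, with the longest span of the 10 genes (95254 bases), was lower in RV at 2 days, at 51.5 CPM against 69.7 before. The part of gene span in the RV values was not tested.

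Late, C1QA was at 82.6 and 66.9 CPM at the RV sites, 324 and 326 in the cranial and caudal CL tumors, and 232 in BM. C1QB was at 36.0 and 53.0 CPM at the RV sites, 87.0 and 72.5 in the cranial and caudal CL tumors, and 257 in BM, and C1QC at 46.7, 61.3, 79.3, 77.4, and 202 in the same order. Both were below their pretreatment level in CL cranial and above it in CL caudal and BM. Over all tumors the fitted early differences were 1.20 for C1QA (SE 0.66, adjusted p = 0.521), 1.76 for C1QB (SE 0.63, adjusted p = 0.361), and 1.52 for C1QC (SE 0.60, adjusted p = 0.407). Without BM they were 0.20, 1.01, and 0.80, and without RV 1.89, 2.45, and 2.13. Leaving out only the BM library at 1 week gave 0.48, 1.28, and 1.05, leaving out BM before treatment gave 0.56, 1.21, and 1.01, and leaving out RV at 2 days gave 1.63, 2.28, and 2.02. Without the 4 libraries they were 2.48, 2.52, and 2.36.

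Whether the early difference itself differed between the sarcoma and the mammary tumors was tested by an interaction in edgeR, an analysis chosen after the values were seen. The sarcoma is 1 tumor, biopsied at 2 days and not 1 week, so tumor type, dog, and time cannot be told apart. Its early difference rests on 1 library at each time and has no replicate, so the errors below come from the other libraries, and the sarcoma is assumed to vary as they do. The difference for C1QB was -0.88 in the sarcoma and 2.45 in the mammary tumors, an interaction of -3.33 (SE 1.04, adjusted p = 0.111). For C1QC the interaction was -3.08 (SE 0.9999, adjusted p = 0.118), for C1QA -2.39 (SE 1.29, adjusted p = 0.280), and for MRC1 -2.23 (SE 1.03, adjusted p = 0.211). For CD163 it was -0.58 (SE 0.85, adjusted p = 0.701). None of the 10 genes passed, as for 0% of all genes in this test, although 4908 genes had an unadjusted p under 0.05.

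In the late comparison with before treatment the adjusted p was 0.974 or more for all 10 genes in edgeR, none had an unadjusted p under 0.05, and DESeq2 called none of them and 0.0348% of all genes. Of all genes tested 0% passed, and 1.28% were higher at an unadjusted p under 0.05. C1QA alone of the 10 was higher late in all 4 tumors, beside 7.13% of all genes, but in RV by only 0.0033 on the log2 scale, and with DESeq2 size factors or upper-quartile normalization none of the 10 was. BM had the highest late difference in every one of the 10 genes, with 4.14 for CD68, 2.76 for CSF1R, 2.29 for C1QA, and 1.37 for CD163. The 10-gene median late was 1.90 in BM, -0.03 in RV, 0.10 in CL cranial, and 0.03 in CL caudal. Without BM the fitted late difference was -0.64 for CD68 and -0.66 for CSF1R, against 0.58 and 0.19 with it.

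Early against late, CSF1R, CD163, MSR1, MRC1, and MARCO were higher early in all 4 tumors, as were 17.4% of all genes. None of the 10 passed an adjusted p of 0.05, beside 0.00994% of all genes (2 genes). Of the 10, 6 were higher at an unadjusted p under 0.05, beside 17.7% of all genes, and DESeq2 called 5, with 23.9% of all genes. The fitted difference was 5.56 for MARCO (SE 0.76) and 2.44 for CD163 (SE 0.36), each at an adjusted p of 0.0603. For CSF1R it was 1.80 (SE 0.60, adjusted p = 0.0980) and for MSR1 1.26 (SE 0.45, adjusted p = 0.114). CD163 and MARCO were also higher in every early library than in every late one, which held for 4.49% of all genes. CD163 and MARCO passed when the pretreatment RV library was left out (both adjusted p = 0.0396), with 3.8% of all genes, or the BM library at 1 week (adjusted p = 0.0358 and 0.0296), with 9.43%. Without the BM library at 3 weeks CD68, at a difference of 3.31, and MARCO passed (both adjusted p = 0.0412), with 0.14% of all genes. This comparison shares the early libraries with the first and is not independent of it.

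At 2 weeks the RV sites differed by between -0.65 (MARCO) and 0.58 (MSR1) on the log2 scale, adjacent minus injection site. The median absolute difference was 0.38 over the 10 genes and 0.48 over all genes tested.

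Count ratios between genes within a library do not depend on its scaling. C1QB to C1QC kept a ratio of 0.769 to 1.55 in all 13 libraries, and their log2 levels had a Pearson r of 0.99 across them. C1QA to C1QB was 4.52 in CL caudal before treatment, 4.49 in CL caudal at 1 month, and 3.73 in CL cranial at 1 month, and 0.715 to 2.296 in the other 10 libraries. AIF1 to CSF1R was 3.47, 4.31, and 4.12 in those same 3 libraries and 0.136 to 1.18 in the others. The ratios to CSF1R of MSR1 (2.49 to 5.05), MRC1 (2.55 to 3.08), and CD163 (2.22 to 2.43) were also highest in these 3 libraries. So was C1QA to C1QC, at 3.56 to 4.21. CD68 to CSF1R (0.0861 to 0.277) and C1QB to CSF1R (1.655 to 4) did not set the 3 libraries apart. Ribosomal protein genes took 12.2%, 10.9%, and 11.01% of the counts in the 3 libraries and 4.66% to 6.61% in the other CL libraries. Shares of 9.80% to 16.5% were also found in RV before treatment and at both late sites, where C1QA to C1QB was 1.26 to 2.296 and AIF1 to CSF1R 0.472 to 0.735. The 3 libraries are also among the 4 low in gene-dense regions, with the fourth, RV at 2 days, at 1.83 for C1QA to C1QB and 3.16% ribosomal protein counts. Starts of protein-coding genes within 500 kb, the measure of gene density, numbered 14 for each of the C1q genes. They numbered 73 for AIF1, 71 for CD68, 30 for CD163, 18 for CSF1R, 6 for MRC1, and 2 for MSR1. The part of these library properties in the ratios, and so in the lower early AIF1 and C1QA of CL caudal, was not tested.

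**Figure D3:**
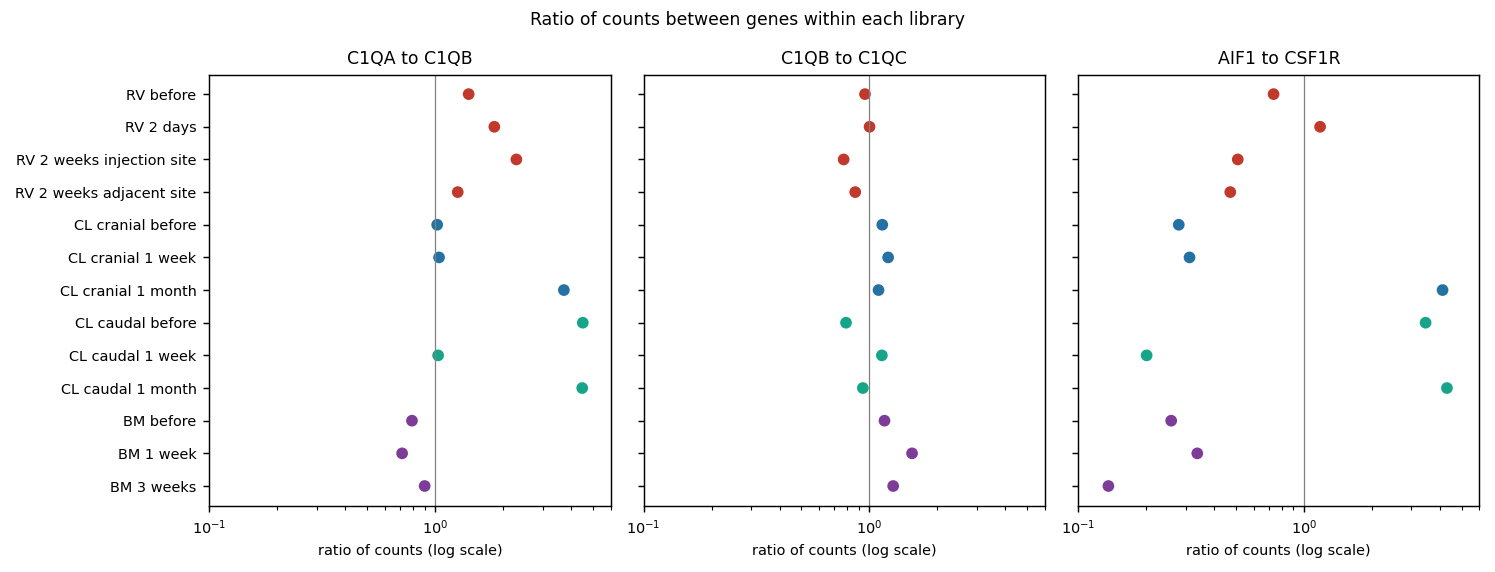
Ratio of counts between a pair of genes in each library, on a log axis, with a grey line at 1 and points colored by tumor. C1QA to C1QB and AIF1 to CSF1R are highest in CL caudal before treatment and both CL biopsies at 1 month, while C1QB to C1QC stays between 0.769 and 1.55.

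Of the 11 ratios computed, the RV biopsy at 2 days lay outside the range of the other 12 libraries in 3 and within it in 8, including CD163, MSR1, MRC1, and AIF1 to CSF1R. CD68 to CSF1R was 1.39 there and 0.083 to 0.482 in the other 12, C1QB to CSF1R was 0.237 there and 0.856 to 4 elsewhere, and MARCO to MSR1 was 0.151 there and at most 0.118 elsewhere. Neutrophil markers summed to 6719 CPM in this library against 42.7 before treatment, with CSF3R, the receptor for granulocyte colony-stimulating factor, at 723 CPM. Epidermis markers summed to 2470 CPM against 64.2, with KRT1 at 427 CPM. Their part in the RV values was not tested.

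Related genes, not all of them particular to macrophages, were read from lists chosen with earlier results known. Over all genes tested, 7.7% were higher early at an unadjusted p under 0.05, 10.8% were higher in all 4 tumors, and the median log2 difference was 0.25. Of 14 tested receptors and adaptors of monocytes and macrophages, 9 were higher early at an unadjusted p under 0.05 and 8 were higher in all 4 tumors, with a median log2 difference of 1.85. SIGLEC1, a sialic acid receptor induced by interferon, had a fitted early difference of 3.92 (SE 0.69, adjusted p = 0.117), and FCER1G, the shared signaling chain of Fc receptors, 3.31 (SE 0.61, adjusted p = 0.117). ADGRE1 (F4/80) passed the test early against late, at 3.26 (SE 0.41, adjusted p = 0.0448), and was 3.01 higher early than before (adjusted p = 0.0930). It averaged 4.90 ± 3.89 CPM before (SD, n = 4), 53.5 ± 68.4 early (SD, n = 4), and 6.28 ± 6.08 late (SD, n = 5).

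Of 9 tested growth and lineage factors 7 were higher early at an unadjusted p under 0.05 (7.7% of all genes) and 7 in all 4 tumors (10.8%), with a median of 1.94. Among them were SPI1, the PU.1 transcription factor of myeloid cells (3.13, SE 0.65, adjusted p = 0.142), and CSF2RB and CSF2RA, the GM-CSF receptor chains (3.32 and 2.63). Of 12 other scavenger receptors 6 were higher by the same measure, with a median of 1.35. CD5L, secreted by tissue macrophages, had a difference of 5.59 (SE 0.93, adjusted p = 0.117), from 2.54 ± 0.86 CPM before (SD, n = 4) to 125 ± 107 early (SD, n = 4). STAB2, an endothelial hyaluronan receptor, had 5.57 from a mean of 0.172 CPM before, and SCARF1, a receptor for C1q-coated and apoptotic cells, 3.27.

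The partners of C1q were less uniform. Of 10 tested, 3 were higher early at an unadjusted p under 0.05 (7.7% of all genes) and 3 in all 4 tumors (10.8%), with a median of 1.04 against 0.25 over all genes. These were SERPING1, the C1 inhibitor, at 2.14 (SE 0.75, adjusted p = 0.348), LRP1, an endocytic receptor, at 1.71 (SE 0.71, adjusted p = 0.430), and C2 at 1.39 (SE 0.64, adjusted p = 0.463). By tumor the list's median was -0.35 in RV, 1.20 and 1.30 in the cranial and caudal CL tumors, and 2.28 in BM, and that of the C1q chains -0.87, 1.87, 1.25, and 3.87. Of 11 phagosome and lysosome genes 4 were higher at an unadjusted p under 0.05, again beside 7.7%, with a median of 0.96. GRN, the lysosomal protein progranulin, had 1.87 (SE 0.62), CTSB 1.79 (SE 0.49), and CTSZ 0.96 (SE 0.45), the last 2 cathepsins, and none passed.

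**Figure D4:**
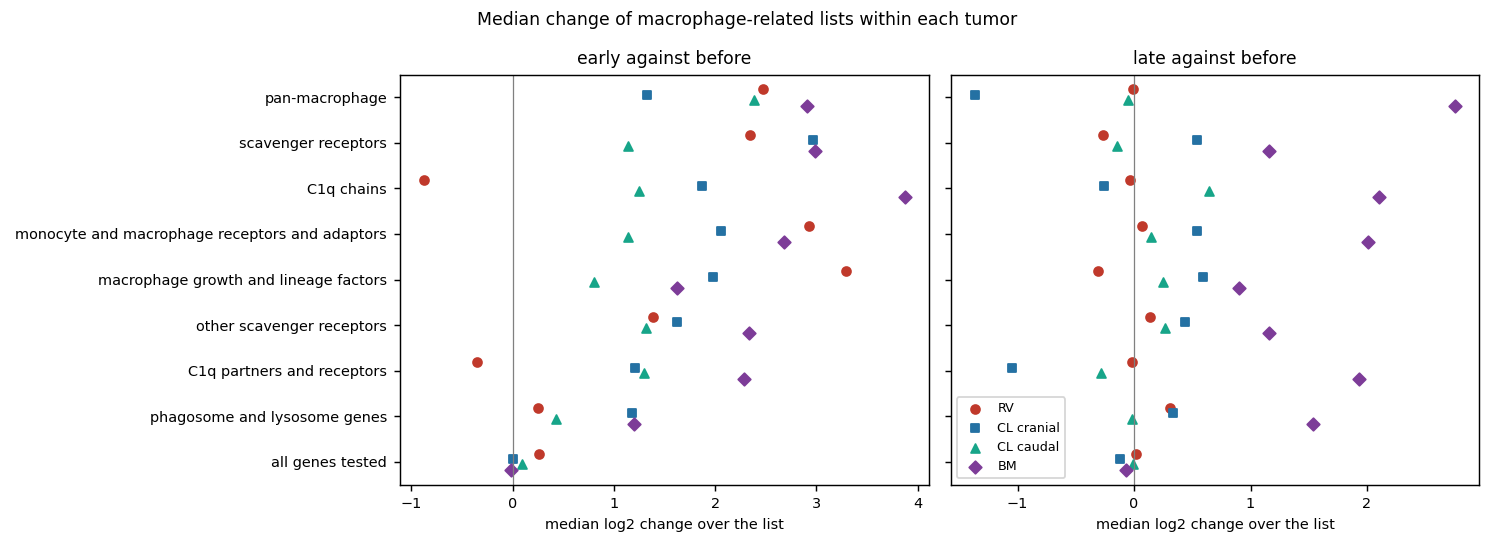
Median log2 difference from before treatment over each list in each tumor, early (left) and late (right), with the median over all genes tested in the bottom row. In RV early the C1q chains and C1q partners lie below 0 and the other lists of named genes above it, and late BM lies highest in each list of named genes.

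The tested genes whose log2 level followed each group of members most closely over the 13 libraries were named by Pearson r, as a description with no test, since libraries share tumors and depth. With the mean of the pan-macrophage genes these were LOC106559612 (r = 0.96) and 4 genes of leukocyte signaling, actin, and adhesion, HCLS1, NCKAP1L, FERMT3, and CYTH4 (r = 0.93 to 0.94). With the scavenger receptors they were LOC478984 (0.97), SIRPB2, TLR8, ABCC3, and HCLS1 (0.94 to 0.95). With the C1q chains they were LOC607405 (0.92), RASSF4 (0.90), LOC111097181, IGFBP7, and MYO7A (0.84 to 0.85). TLR8, an endosomal sensor of single-stranded RNA, averaged 4.04 ± 1.19 CPM before (SD, n = 4), 24.7 ± 11.2 early (SD, n = 4), and 5.46 ± 1.30 late (SD, n = 5).

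Markers of other cells also differed early. All 6 endothelial markers were higher early at an unadjusted p under 0.05, beside 7.7% of all genes, and their sum was 31.9 to 143 CPM before, 100.2 to 1660 early, and 35.8 to 306 late. Of 6 T cell markers 4 were, beside the same 7.7%, with sums of 12.1 to 31.4 CPM before, 26.3 to 172 early, and 32.4 to 91.7 late. The neutrophil sums were 42.7 to 2112 CPM before, 42.5 to 6719 early, and 36.7 to 1415 late, with none of the 8 markers higher early in all 4 tumors. The late maximum, in BM, was mostly MMP9 (1401 CPM), with CSF3R at 0.672. The maximum before treatment, in CL caudal, was mostly S100A8 (1544 CPM) and S100A9 (491), with CSF3R at 2.93. Dendritic cell markers summed to 18.7 to 34.3 CPM before, 20.7 to 86.8 early, and 13.8 to 52.3 late. The macrophage markers were present in every library, and the part of the other cells in their early levels was not tested.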

How the data were processed

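Strand-specific RNA-seq was performed by the authors on 13 biopsies, with reads aligned to CanFam4.0 in Strand NGS, and the deposited table holds raw counts per gene symbol without normalization. The counting rule, annotation release, and handling of multi-mapping reads are not given in the sources used here. Of 43427 symbols, 98.0% matched RefSeq. The members and lists were chosen with earlier results of these data known.

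Genes were kept by filterByExpr (minimum count 10), scaled by TMM, and fitted in edgeR 4.0.16 (R 4.3.3) by the quasi-likelihood test in a model of tumor plus time group, with Benjamini-Hochberg adjustment over 20118 genes and a threshold of 0.05. The coefficient of variation was 0.672, with 7 residual degrees of freedom. Libraries of 1 tumor are biopsies of 1 mass, and their deviations correlated at a mean r of 0.229 (early and before), 0.587 (late and before), and 0.191 (early and late). Each pair of libraries differed by more than sampling noise (chi-square over its degrees of freedom 44.5 or more). P-values measure the spread between these samples, in which 4 tumors come from 3 dogs. Log2 CPM used a prior count of 2.

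Named genes were all members, the genes of each list past the threshold or up to 3 with the largest early difference in 1 direction in all 4 tumors, and the 5 genes most correlated with each member group. DESeq2 1.42.0 was an alternative. The model was also run on simulated data without tumor effects, whose outcome is not reported here. Figures used matplotlib 3.10.9.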

Additional observations from a re-analysis of the deposited data

Results flagged for a closer look

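CSF1R in BM at 3 weeks stood far from the other late libraries, at 7.96 log2 CPM. It was 1 such value among 30 groups of libraries examined, where chance gives about 1.5. In 5 of 20 comparisons the sarcoma lay on the opposite side of 0 from all 3 mammary tumors. The share of all genes that do so was not computed, so the count is not read as a trait of these genes. Early these were MRC1 (-0.44 in RV), C1QB (-0.87), and C1QC (-0.94), for which the interaction of time with tumor type had adjusted p-values of 0.211, 0.111, and 0.118 in edgeR. Late these were AIF1 (-0.59 in RV) and CD163 (-0.016 in RV), with adjusted p-values of 0.998 for the interaction. The CD163 value is close to 0, and the interaction fit put it at 0.013 in RV, the same side as the mammary tumors, so its direction is not settled. The sarcoma is a single tumor without replicate early or before, sampled at other times than the mammary tumors.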

How the results depend on the processing

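Early against before, the number of the 10 genes past an adjusted p of 0.05, 0 in edgeR, was 2 with no filter on low counts (CD163 and MARCO, with 0.0482% of all genes), 5 with DESeq2 (4.75%), and 0 to 1 when a tumor or library was left out (CD163 without CL caudal at 1 week). Early against late it was 2 with upper-quartile normalization (0.0249% of all genes), with no filter (3.06%), and with offsets for gene density and gene span (2.89%, chosen after seeing the data), CD163 and MARCO each time, and 5 with DESeq2 (23.9%). Leaving out a library gave 0 to 2, with CD163 and MARCO without RV before treatment or BM at 1 week, and CD68 and MARCO without BM at 3 weeks. Without the tumor block it was 0 in every comparison, as it was with the block in edgeR. Over all genes tested, leaving out the block took the number called from 1 to 0 early against before. Early against late it went from 2 to 0.

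The number higher in all tumors early was 4, beside 10.8% of all genes, and 4 to 7 with a tumor left out (7 without RV). Late it was 1 of the 10, beside 7.13% of all genes. With DESeq2's size factors and with upper-quartile normalization it was 0, and with CL tumors summed or late RV sites summed 2. With a tumor left out it was 1 to 3 (3 without RV, 2 without CL caudal). Fewer tumors must then go the same way, as with CL tumors summed, so these counts are not set against the shares given. Single libraries were not left out of these counts.

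Over all settings and comparisons, 17 fitted differences of single genes turned direction, and 25 passed the threshold where the edgeR values reported did not. Neither held for 292 early against before, 285 late against before, and 280 early against late. Late against before, leaving out a tumor or library gave -0.79 to 1.33 for CD68 and -0.66 to 0.83 for CSF1R, both below 0 without BM, BM before treatment, or BM at 3 weeks. MRC1 late ranged from -0.25 to 0.63, below 0 without BM, CL cranial, or the before-treatment library of either, or CL cranial at 1 month, and C1QB late from -0.038 to 1.05, below 0 without BM before treatment. C1QA early against late ranged from -0.44 to 0.76, below 0 without BM or BM at 1 week. Without the 4 libraries low in gene-dense regions (chosen after seeing the data), MRC1 late was -0.16, MARCO late 0.093, and CD68 early against late -1.05. The cause was not tested. With 4 tumors in 3 dogs and 7 residual degrees of freedom, the number of tumors and dogs limits precision. The fit counts both CL tumors of 1 dog as blocks and both late RV sites as libraries. With the CL tumors summed, the early difference was 2.91 for CD163 and 5.00 for MARCO (adjusted p = 0.359 for each in edgeR).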
